A study of Mus musculus with 36 samples.

Results

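Cortical neurons that had received BDNF for 10 h were compared with neurons that had received KCl for 10 h in their open chromatin, to find the loci that were more accessible under each stimulus. The comparison rests on 4 of the 36 samples of the series, chosen by assay, stimulus and time in the sample labels, with 2 ATAC-seq libraries for each stimulus. Cells came from the cortices of CD-1 mouse embryos at embryonic day 15, tissue of all embryos being dissociated together, and were grown for 7 days in vitro. For 2 h, cells of both stimulated groups were kept in 100 µM AP-5, which blocks NMDA receptors, and 1 µM TTX, which blocks sodium channels, before they received 10 ng/ml BDNF or 55 mM KCl. The 6 control libraries (2 at each of 1, 6 and 10 h) stayed in AP-5 and TTX, for 12 h in all at the 10 h time point, so the controls are silenced neurons and not resting ones. Libraries of a group are called A and B in the order of the table, which pairs nothing. RNA-seq of the same groups (2 libraries each) served as a second readout. The methods of the study call the libraries of a group biological replicates, while the labels do not say that they came from separate cultures, and p-values measure the spread between these libraries.

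BDNF is a secreted growth factor that binds the receptor tyrosine kinase TrkB and signals largely through Ras and the MAP kinases ERK1 and ERK2. KCl depolarises the membrane, opens voltage-gated calcium channels and signals through calcium-dependent kinases and the phosphatase calcineurin. ATAC-seq counts insertions of the transposase Tn5, which cuts where DNA is not covered by nucleosomes, so a peak marks a promoter or a distal element such as an enhancer. AP-1, a dimer of Fos and Jun proteins, and the MEF2 factors, which are regulated by calcium in neurons, are both known to act at distal elements of activity-regulated genes.

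Of 58177 peaks in the table, 56383 had a mean of at least 10 reads over the 18 ATAC libraries and were tested. At a Benjamini-Hochberg adjusted p below 0.1 (edgeR's quasi-likelihood test on counts with LOESS scaling), 655 peaks were higher with BDNF, 1.16% of those tested, and 465 were higher with KCl, 0.825%. The median log2 difference of the first list was 1.64, and that of the second was −1.65. Of the 655 peaks, 518 differed by at least 2-fold, and so did 358 of the 465. The count rests on few libraries. It fell from 1120 in all to 153 without KCl library B and to 287 without BDNF library A. Without the other libraries it was 570 and 660. The fitted difference kept its sign in all 1120 peaks each time, but this was nearly fixed in advance. Both libraries of the higher group lay above both of the lower in 653 of the 655 peaks and 462 of the 465. DESeq2 called 647 peaks and limma 945. With TMM in place of LOESS scaling, 1042 and 504 peaks were called, so that the share higher with BDNF went from 58.5% to 67.4%, and it was 46.6% with limma. The last peak inside the threshold (nearest gene Chordc1) had an adjusted p of 0.0996 and the first outside it (Shank2) one of 0.1001, by the same test.

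**Figure D1:**
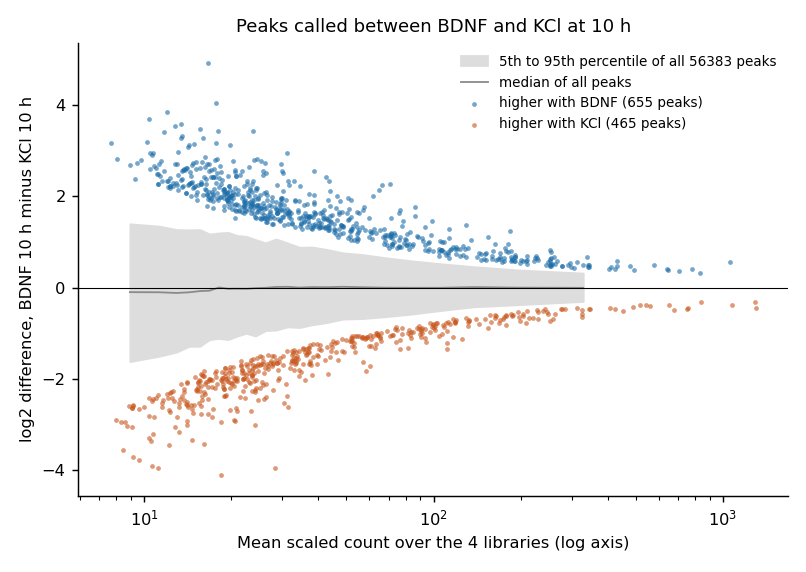
Each point is a called peak, with its mean scaled count over the 4 libraries on a log x axis and the log2 difference BDNF 10 h minus KCl 10 h on the y axis. The grey band spans the 5th to 95th percentile of all 56383 peaks in 25 bins of mean count, and the weak peaks are called only at large differences while strong peaks are called at differences under 1.

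The sequences of a few peaks show what the lists hold. For each direction these are 3 of the 10 peaks with the largest fitted fold change and 2 further peaks whose nearest gene was called in the RNA in the same direction. Sequences are the plus strand of mm10 (GRCm38), at most the central 300 bases of the peak, with AP-1 motifs (TGACTCA, either strand) and MEF2 motifs in capitals. Higher with BDNF:
Olfm4 peak, chr14:80249976-80250179: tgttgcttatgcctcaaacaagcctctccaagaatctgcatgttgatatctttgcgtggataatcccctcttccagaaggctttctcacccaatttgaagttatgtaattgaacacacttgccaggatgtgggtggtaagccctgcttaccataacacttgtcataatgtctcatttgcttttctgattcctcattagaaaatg
Farp1 peak, chr14:120997746-120998045: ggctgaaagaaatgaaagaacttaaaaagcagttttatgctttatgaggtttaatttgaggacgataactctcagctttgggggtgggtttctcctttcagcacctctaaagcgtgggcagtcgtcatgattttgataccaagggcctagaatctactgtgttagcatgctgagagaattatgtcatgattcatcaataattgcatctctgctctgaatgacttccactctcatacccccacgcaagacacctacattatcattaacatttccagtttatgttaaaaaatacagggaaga
Cdh6 peak, chr15:13210192-13210491: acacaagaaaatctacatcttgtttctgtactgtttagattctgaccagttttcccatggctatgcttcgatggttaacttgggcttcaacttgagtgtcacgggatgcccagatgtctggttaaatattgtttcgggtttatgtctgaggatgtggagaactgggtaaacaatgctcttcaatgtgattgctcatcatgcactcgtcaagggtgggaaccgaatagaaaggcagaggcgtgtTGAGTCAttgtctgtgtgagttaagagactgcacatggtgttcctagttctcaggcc
Rtn4rl2 peak, chr2:84866198-84866497: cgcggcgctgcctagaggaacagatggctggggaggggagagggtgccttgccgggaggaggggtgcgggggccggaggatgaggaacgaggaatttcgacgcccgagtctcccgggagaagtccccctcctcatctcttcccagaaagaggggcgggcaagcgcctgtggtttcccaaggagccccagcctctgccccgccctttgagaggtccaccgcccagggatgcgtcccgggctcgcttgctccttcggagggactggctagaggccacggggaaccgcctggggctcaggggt
Pfkfb3 peak, chr2:11429677-11429976: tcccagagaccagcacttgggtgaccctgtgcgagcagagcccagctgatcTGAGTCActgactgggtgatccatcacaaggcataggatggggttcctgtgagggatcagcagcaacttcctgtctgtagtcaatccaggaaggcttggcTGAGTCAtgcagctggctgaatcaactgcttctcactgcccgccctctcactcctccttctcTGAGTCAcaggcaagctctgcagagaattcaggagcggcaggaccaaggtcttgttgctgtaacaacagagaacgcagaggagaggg
Higher with KCl:
Hs3st5 peak, chr10:36557787-36558073: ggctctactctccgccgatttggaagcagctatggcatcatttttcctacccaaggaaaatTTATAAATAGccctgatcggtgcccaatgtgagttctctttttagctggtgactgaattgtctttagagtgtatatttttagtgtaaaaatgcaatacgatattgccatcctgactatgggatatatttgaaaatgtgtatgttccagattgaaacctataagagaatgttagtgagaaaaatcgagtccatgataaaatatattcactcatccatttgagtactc
Bmt2 peak, chr6:13691876-13692175: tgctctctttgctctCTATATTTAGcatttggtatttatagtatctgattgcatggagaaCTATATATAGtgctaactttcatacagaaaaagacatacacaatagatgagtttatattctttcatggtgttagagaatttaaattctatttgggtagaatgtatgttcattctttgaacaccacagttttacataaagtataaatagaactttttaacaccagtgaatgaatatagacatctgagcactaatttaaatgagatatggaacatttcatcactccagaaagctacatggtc
Dgki peak, chr6:37242218-37242450: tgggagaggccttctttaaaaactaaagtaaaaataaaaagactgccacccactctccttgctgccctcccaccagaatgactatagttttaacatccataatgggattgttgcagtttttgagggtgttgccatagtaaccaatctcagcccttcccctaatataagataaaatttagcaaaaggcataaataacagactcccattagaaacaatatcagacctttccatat
Cacnb2 peak, chr2:14936524-14936823: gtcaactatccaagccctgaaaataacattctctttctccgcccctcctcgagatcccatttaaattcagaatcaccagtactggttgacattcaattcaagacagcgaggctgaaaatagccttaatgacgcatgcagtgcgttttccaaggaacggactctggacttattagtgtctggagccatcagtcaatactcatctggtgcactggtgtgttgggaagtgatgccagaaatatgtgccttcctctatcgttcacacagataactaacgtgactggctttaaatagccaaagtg
Hsd17b12 peak, chr2:94247007-94247306: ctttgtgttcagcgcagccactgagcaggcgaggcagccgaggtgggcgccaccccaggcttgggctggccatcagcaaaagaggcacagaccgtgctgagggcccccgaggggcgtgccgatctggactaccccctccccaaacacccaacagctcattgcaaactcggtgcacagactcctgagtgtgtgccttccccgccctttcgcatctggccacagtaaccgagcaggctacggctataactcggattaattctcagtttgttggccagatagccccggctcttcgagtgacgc

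Among the BDNF-higher sequences, the Pfkfb3 peak held 3 AP-1 motifs and the Cdh6 peak 1. Of the KCl-higher sequences, the Bmt2 peak held 2 MEF2 motifs and the Hs3st5 peak 1. The other 6 held neither motif.

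The same contrast of motifs held over the whole lists. An AP-1 motif lay in the 300 bases round the centre of 253 of 655 BDNF-higher peaks (38.6%, exact 95% interval 34.9 to 42.5), of 33 of 465 KCl-higher peaks (7.097%, 4.935 to 9.82) and of 11.2% of all peaks tested. Outside promoters the shares were 48.5%, 7.26% and 14.0%. MEF2 motifs ran the other way. They lay in 19 BDNF-higher peaks (2.90%, 1.76 to 4.49), in 68 KCl-higher peaks (14.6%, 11.5 to 18.2) and in 4.59% of all peaks. The MEF2 share of KCl-higher peaks was 22.8% without BDNF library A, 10.9% without BDNF library B, 10.96% without KCl library A and 25.4% without KCl library B, all above 4.59%. The core CTCF motif, bound by the insulator protein CTCF, was in 7 BDNF-higher peaks (1.07%, 0.431 to 2.19) and 8 KCl-higher peaks (1.72%, 0.746 to 3.36). Of all peaks, 3.81% held it. The KLF motif CCCGCCC, of the Klf and Sp zinc finger family, was in 10.1%, 13.3% and 14.3%. The CArG box of SRF was in 3 BDNF-higher peaks (0.458%, 0.0946 to 1.33) and 8 KCl-higher peaks (1.72%, 0.746 to 3.36), against 1.43% of all peaks. Shares were close to that over all peaks for TAATTA (homeobox family), in 13.7% and 13.8% against 12.6%, for CAGATG (neurogenic bHLH family), in 26.3% and 22.4% against 25.2%, and for the palindromic CRE of the CREB and ATF family, in 0.916% and 1.29% against 0.999%. Intervals cover counting error of the lists only. The AP-1 share depended on the scaling, being 27.7% of the 1042 peaks called with TMM, still above the 11.2% of all peaks.

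**Figure D2:**
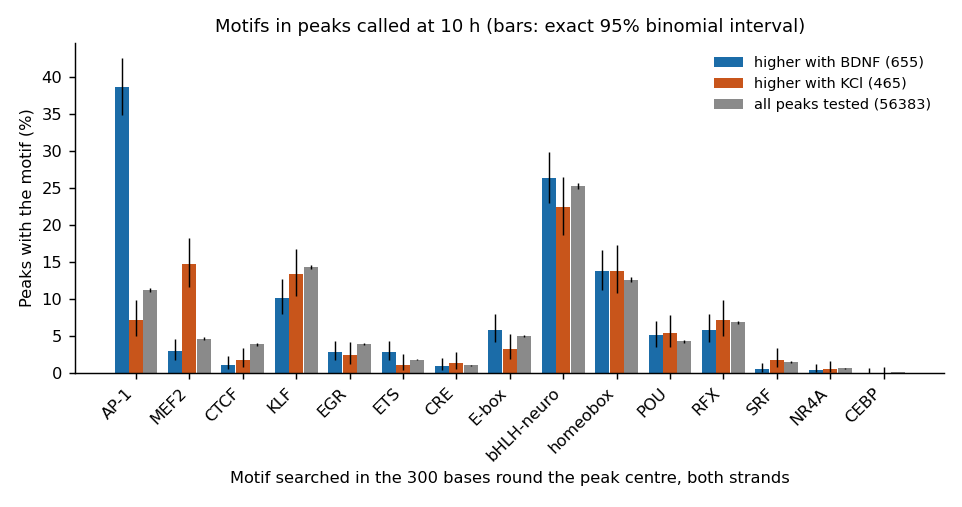
Bars give the share of peaks (%) that hold each motif for the 655 peaks higher with BDNF, the 465 higher with KCl and all 56383 tested, with exact 95% binomial intervals. AP-1 stands out in the BDNF list at 38.6% and MEF2 in the KCl list at 14.6%.

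Read the other way round, 6294 tested peaks held an AP-1 motif, and their median log2 difference at 10 h was 0.22 against −0.03 for peaks without one. It was 0.18 for the 5498 peaks with 1 AP-1 motif and 0.53 for the 796 with 2 or more, of which 7.04% were called higher with BDNF. The 2589 peaks with a MEF2 motif had a median of −0.15, and 2.63% of them were called higher with KCl and 0.734% higher with BDNF. At 6 h and 1 h, in other libraries, the medians were 0.35 and 0.80 for AP-1 peaks and −0.14 and −0.16 for MEF2 peaks.

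Transcripts of the Fos, Jun and MEF2 families were read in the RNA of the same groups. The MEF2 genes were chosen after their values were seen. Normalised RNA counts of Fos reached 948 and 995 in the KCl libraries of 10 h, against 119 and 113 in those of BDNF and 25.1 to 43.3 in controls. The log2 difference of Fos was −3.06 ± 0.18 (SE, limma, adjusted p = 8.26e-11). Fosb (−3.34 ± 0.27) and Fosl2 (−1.51 ± 0.19) were also lower with BDNF, with adjusted p of 3.27e-09 and 1.77e-05 by limma. Jun differed by 0.41 ± 0.09 and Fosl1 by 0.53 ± 0.18, both higher with BDNF (limma, adjusted p = 0.00181 and 0.029). Jun had 1260 and 1294 with BDNF, 978 and 951 with KCl and 1096 to 1255 in controls. Fosl1 had 65.6 and 78.7 with BDNF, 52.6 and 46.8 with KCl and 57.7 to 77.9 in controls. For both genes the KCl libraries lay below every control, while BDNF lay within or just above the control range. Junb (−0.03 ± 0.16) and Jund (−0.24 ± 0.13) were not called. Of the MEF2 family, Mef2c (−0.64 ± 0.09) and Mef2d (−0.42 ± 0.10) were higher with KCl and Mef2a (0.24 ± 0.08) was higher with BDNF, with adjusted p of 4.13e-06, 0.00188 and 0.0312 by limma. Mef2c was 4295 to 4712 in controls, above both stimulated groups. Fos, Fosb and Fosl2 mRNA were thus higher with KCl at the time when AP-1 motifs were frequent in the peaks higher with BDNF.

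Levels in all 18 libraries separated the BDNF-higher peaks by the AP-1 motif. In the 253 peaks with the motif, the median scaled count (reads after LOESS scaling) was 7.30 to 10.2 in the 6 controls, 42.1 to 48.9 in the 6 BDNF libraries of 1, 6 and 10 h and 10.3 to 17.4 in the 6 KCl libraries. The levels with BDNF lay above those of every other library at all 3 times. In the 402 peaks without it, the median was 29.7 to 34.0 in controls, 55.1 and 63.5 with BDNF at 10 h, and 19.7 and 20.01 with KCl at 10 h. At 1 h and 6 h these peaks had 47.3 to 54.0 with BDNF and 24.7 to 29.4 with KCl. Here the controls lay between both stimuli, and KCl at 10 h lay below every control. KCl-higher peaks with a MEF2 motif (68) had medians of 16.2 to 19.7 in controls, 40.1 and 46.8 with KCl at 10 h, and 9.63 and 9.90 with BDNF at 10 h. At 1 h and 6 h they had 25.4 to 38.3 with KCl and 14.7 to 16.5 with BDNF. In the 397 KCl-higher peaks without it, the medians were 30.3 to 32.5 in controls, 45.9 and 48.4 with KCl at 10 h, and 14.6 and 15.9 with BDNF at 10 h. At 1 h and 6 h these had 37.1 to 42.1 with KCl and 25.5 to 29.6 with BDNF, the latter closer to controls than at 10 h. The 4 libraries of 10 h chose these peaks, so their separation from each other is given by the choice. Their distance from controls and from the levels at 1 h and 6 h is in part given by it too. Only the libraries of 1 h, 6 h and controls took no part in that contrast, so comparisons among them are not given by it. They did enter the filter on the mean over all 18 libraries. A peak low in controls and with KCl could pass that filter only through its BDNF libraries. Levels with BDNF at 1 h and 6 h above controls may thus be in part given by the filter.

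**Figure D3:**
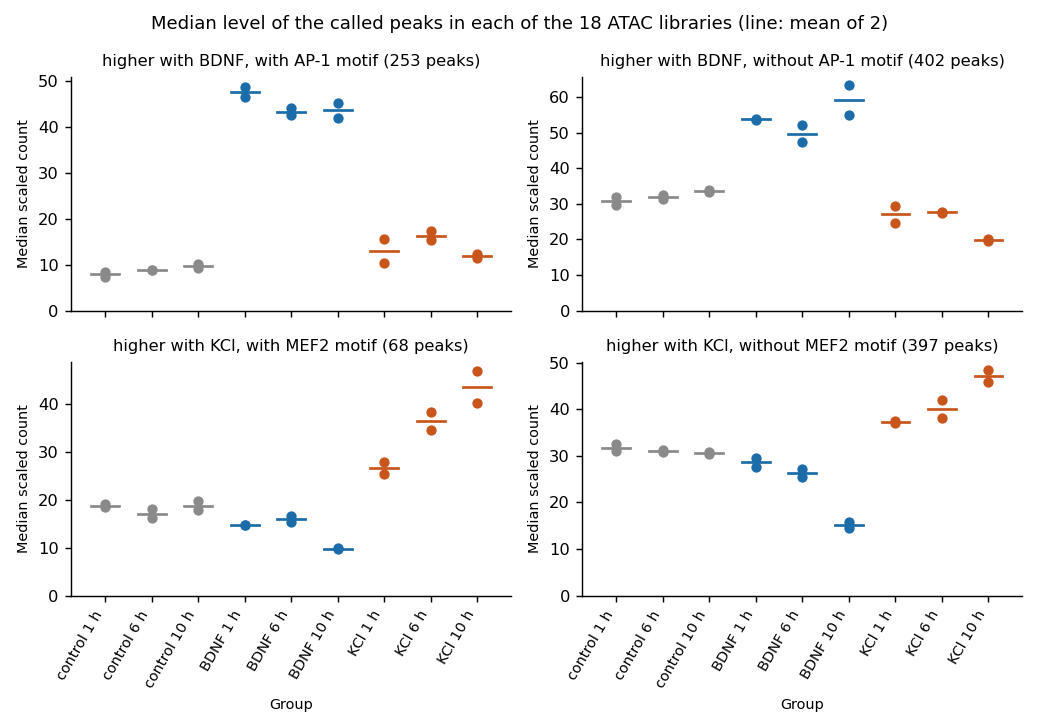
Each point is the median scaled count of a list of called peaks in 1 of the 18 ATAC libraries, by group on the x axis, and each line is the mean of the 2 libraries of a group. Panels split the BDNF-higher peaks by AP-1 motif and the KCl-higher peaks by MEF2 motif, and the AP-1 panel shows the 6 BDNF libraries at 42.1 to 48.9 and the 12 others at 7.30 to 17.4.

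The same difference was looked for at 6 h and 1 h, in libraries other than the 4 compared at 10 h. These libraries entered the 10 h fit only through the scaling, the filter and the shared estimate of spread, and with the 4 libraries of 10 h alone 815 peaks were called in place of 1120. At 6 h, 2.25% of all peaks were called higher with BDNF and 1.37% higher with KCl. Among the peaks called at 10 h, 246 of 655 (37.6%) and 98 of 465 (21.1%) were called the same way at 6 h, and 0 were called the opposite way. At 1 h the shares over all peaks were 9.3% and 5.55%, and 385 of 655 (58.8%) and 102 of 465 (21.9%) were called the same way, with 2 and 5 called the opposite way. KCl library B of 6 h was the shallowest of all ATAC libraries, with 1.24 M reads in peaks. The BDNF and KCl libraries of 1 h had 3.82 to 6.24 M. The part of depth in the shares at 6 h was not tested. For BDNF-higher peaks with an AP-1 motif, 122 of 253 were called at 6 h and 213 of 253 at 1 h, against 124 and 172 of 402 for those without. For KCl-higher peaks with a MEF2 motif, 33 and 27 of 68 were called at 6 h and 1 h, against 65 and 75 of 397 for those without. All 6294 tested peaks with an AP-1 motif had medians of 0.35 at 6 h and 0.80 at 1 h, and all 2589 with a MEF2 motif −0.14 and −0.16. The lean at these times was thus not particular to the peaks called at 10 h.

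Whether the difference between stimuli at 10 h was another than at 1 h was tested by its own contrast. BDNF minus KCl was larger, with its sign, at 10 h in 135 peaks (0.239%) and smaller in 436 (0.773%). Among the 436, the median log2 difference was 1.86 at 1 h and −0.39 at 10 h, 383 were called higher with BDNF at 1 h and 212 held an AP-1 motif. Among the 135, the medians were −1.08 and 0.68, 104 were called higher with KCl at 1 h and 2 held an AP-1 motif. Of the 655 BDNF-higher peaks 21 were among the 135 and 9 among the 436, and of the 465 KCl-higher peaks 42 were among the 436. The libraries of 1 h and 10 h chose the 135 and the 436, so these medians, calls and overlaps are in part given by the choice. The count of 571 in all was 80 without KCl library A and 21 with limma. Against 6 h, no peak was called (0%) by edgeR, DESeq2 or limma. An unadjusted p under 0.05 was had by 3022, 2515 and 3804 peaks. The edgeR count was 5.36% of the peaks tested, near the share of 0.05 that passes where nothing differs. Each group had 2 libraries, and KCl library B of 6 h had 1.24 M reads in peaks. The lack of calls therefore does not show that the differences at 6 h and 10 h were equal.

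The peaks with the largest fitted fold change were weak, and many were near empty in the lower group. The lowest value in the table is 1 read, and both libraries of the lower group stood at 1 read in 1 BDNF-higher and 5 KCl-higher peaks. The Olfm4 peak (chr14:80249976-80250179, intergenic, 249.8 kb from the start of Olfm4, a secreted glycoprotein) had scaled counts of 36.4 and 28.2 with BDNF and 0.970 and 0.943 with KCl. In controls it had 6.43 to 15.9. The ratio of the Olfm4 peak was 33.8 (counting interval 8.87 to 287), with a fitted log2 difference of 4.91 ± 0.83 (SE, edgeR, adjusted p = 0.000165). The Farp1 peak (chr14:120997726-120998064, intergenic, 37.3 kb from the start of Farp1) had 33.4 and 33.6 with BDNF and 1.97 and 1.89 with KCl. Controls of the Farp1 peak had 1.03 to 3.65, so that the KCl libraries lay in the control range, and the ratio was 17.3 (counting interval 6.37 to 66.02; log2 4.04 ± 0.71, edgeR adjusted p = 0.000318). The Cdh6 peak (chr15:13210129-13210554, intergenic, 36.7 kb from Cdh6, a cadherin) had 21.7 and 23.4 with BDNF, 0.999 and 1.89 with KCl and 2.14 to 5.94 in controls (log2 3.85 ± 0.76, edgeR adjusted p = 0.00182). The Mtdh peak (chr15:33907168-33907459, intergenic, 175.4 kb away) had 45.9 and 41.4 with BDNF and 4.07 and 3.81 with KCl, with 1.21 to 7.33 in controls (log2 3.43 ± 0.59, edgeR adjusted p = 0.000227). Its difference was of like size at 1 h (3.59), and this peak held an AP-1 motif. The Igfbp7 peak (chr5:77502850-77503077, intergenic, 94.9 kb away) showed the other pattern. It had 36.3 and 29.6 with BDNF, 2.03 and 3.81 with KCl and 11.7 to 23.7 in controls (log2 3.42 ± 0.64, edgeR adjusted p = 0.00105). The other 5 peaks of this rule, nearest to Dad1, Adh6b, Cacna1b, Clrn2 and Cpq, had fitted log2 differences of 3.41 to 3.68. RNA of Olfm4 (−0.91 ± 0.36) and Dad1 (−0.37 ± 0.10) was lower with BDNF (limma, adjusted p of 0.0521 and 0.00683). That of Mtdh, Igfbp7 and Cpq was not called, and that of Farp1, Cdh6 and Cacna1b is given below.

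In the direction of KCl, the Hs3st5 peak (chr10:36557787-36558073, in an intron, 50.9 kb from the start of Hs3st5, a sulfotransferase of heparan sulfate) had 36.8 and 33.0 with KCl and 2.88 and 1.12 with BDNF. Controls of the Hs3st5 peak had 2.91 to 12.2, so KCl libraries lay above and BDNF libraries below all 6 (log2 −4.11 ± 0.78, edgeR adjusted p = 0.00108). The Bmt2 peak (chr6:13691846-13692204, intergenic, 14.1 kb away) had 64.6 and 42.7 with KCl, 1.57 and 4.72 with BDNF and 4.23 to 15.4 in controls (log2 −3.96 ± 0.65, edgeR adjusted p = 0.000102). Both peaks were called the same way at 6 h, at −3.86 and −2.65, and the Bmt2 peak also at 1 h, at −3.27. Both genes also had more RNA with KCl. Peaks nearest to Gna14, Dgki, Jmy, Ppip5k2 and Anxa2 had 1 read in both BDNF libraries. Their ratios of KCl to BDNF were 16.6, 15.99, 14.8, 14.1 and 12.6, with counting intervals that start at 4.34, 4.16, 3.83, 3.62 and 3.23. Control levels of these 5 peaks had medians of 7.39 to 11.8, above the BDNF libraries. At the Ppip5k2 peak the KCl libraries were uneven, with 8.54 and 25.6. The St8sia4 peak was uneven too, with 8.77 and 35.8 with KCl, so that library A lay below the controls (10.5 to 23.3). Peaks nearest to St8sia4, Dthd1 and Basp1 had fitted log2 differences of −3.45 ± 0.81, −3.44 ± 0.73 and −3.37 ± 0.85. The BDNF 10 h libraries were the shallowest of the 4, with 2.02 and 2.78 M reads in peaks against 2.99 and 3.21 M for KCl, and the part of depth in these low values was not tested.

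Promoter shares were compared next. A peak was put at a promoter where it overlapped 1000 bases upstream to 100 downstream of a GENCODE M21 start, which held for 23.8% of BDNF-higher (20.6 to 27.3), 20.0% of KCl-higher (16.5 to 23.9) and 27.1% of all peaks. With TMM scaling these shares were 44.9% and 14.1%, so the order for BDNF against all peaks turned with the scaling. Introns held 34.7%, 37.0% and 33.2%, and intergenic sequence 36.2%, 39.6% and 35.0%. The median distance to a protein-coding start was 32.1 kb for BDNF-higher, 51.0 kb for KCl-higher and 28.4 kb for all peaks. Median GC content was 45.9%, 46.3% and 49.0%. Chromosome X held 21 BDNF-higher and 4 KCl-higher of its 1267 peaks (1.66% and 0.316%, against 1.16% and 0.825% of all peaks). Its part of the reads in peaks was 2.199% and 2.116% in the BDNF libraries, against 1.993% and 1.916% in those of KCl. The part of this difference in the X-linked calls was not tested.

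The promoter peaks with the largest differences were few-read peaks as well. The Cdh7 promoter (chr1:109982064-109982308; Cdh7 is a cadherin) had scaled counts of 25.6 and 28.6 with BDNF, 5.13 and 4.82 with KCl and 11.9 to 28.8 in controls (log2 2.43 ± 0.59, edgeR adjusted p = 0.0175). Its transcript went the other way, at −1.62 ± 0.19 (limma, adjusted p = 7.19e-07). The Slc7a1 peak (chr5:148342458-148342674, at an alternative start of this cationic amino acid transporter) had 15.3 and 32.5 with BDNF and 3.96 and 3.78 with KCl (log2 2.62 ± 0.66, edgeR adjusted p = 0.0225). The promoter of Ntsr1, the neurotensin receptor, had 31.5 and 42.8 with KCl, 12.97 and 7.27 with BDNF and 24.7 to 43.6 in controls (chr2:180499676-180500102, log2 −1.91 ± 0.50, edgeR adjusted p = 0.0292). There the KCl libraries lay in the control range and both BDNF libraries below it.

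Peaks were next grouped by 5 lists of genes. Of 60 peaks whose nearest start within 100 kb was that of a gene of receptor kinase and MAP kinase feedback, 4 were higher with BDNF and 1 with KCl (8.33% in all, against 1.88% of the 41353 peaks within 100 kb of any protein-coding start). The median log2 difference of the 60 was 0.09. In the RNA, 9 of 16 tested genes of this list were higher with BDNF and 4 with KCl, where 23.1% and 21.8% of all 16209 genes tested were. A distal peak of Spred2, an inhibitor of Ras and ERK signalling, had 359 and 289 with BDNF, 205 and 169 with KCl and 88.0 to 172 in controls (chr11:19835217-19835849, 88.8 kb away, log2 0.79 ± 0.16, edgeR adjusted p = 0.00352). This Spred2 peak held an AP-1 motif and was called the same way at 6 h (0.62) and 1 h (1.44). The Spred2 promoter (chr11:19923978-19924656) had 239 and 212 with BDNF and 149 and 145 with KCl (log2 0.61 ± 0.17, edgeR adjusted p = 0.0517). The promoter of Spry2, a feedback inhibitor of receptor tyrosine kinases, had 329 and 370 with BDNF, 232 and 251 with KCl and 254 to 313 in controls (chr14:105896905-105898080, log2 0.54 ± 0.14, edgeR adjusted p = 0.0292), and its RNA was not called (−0.11 ± 0.09). A peak 12.3 kb from Dusp6, the ERK phosphatase, had 42.5 and 30.7 with BDNF, 8.10 and 11.4 with KCl and 1.22 to 15.6 in controls (chr10:99250820-99251084, log2 1.88 ± 0.55, edgeR adjusted p = 0.0613). Dusp6 RNA moved with it, from 1528 and 1638 with BDNF to 479 and 381 with KCl (log2 1.89 ± 0.14, limma adjusted p = 1.04e-09). The KCl-higher member was a peak in an intron 69.9 kb from Spry1, with 23.5 and 27.8 with KCl and 1.59 and 10.7 with BDNF (chr3:37569847-37570192, log2 −1.93 ± 0.60, edgeR adjusted p = 0.0921). Controls of the Spry1 peak had 13.7 to 47.0. The calls at the Spred2 promoter, Dusp6, Crh, Egr4, Nptx1 and Cacna1e were lost when any of the 4 libraries was left out, so these rest on all 4.

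Of 86 peaks nearest to 22 immediate early transcription factors, 1 was higher with BDNF and 1 with KCl, or 2.33% in all against the 1.88% above. Of the 22 genes, 5 had more RNA with BDNF, near the share of 23.1% over all genes, and 10 had more with KCl, against 21.8% over all genes. The Npas4 peak (chr19:4992925-4993245, 2.77 kb from the start of Npas4 and at that of the annotated AC124502.5) had 52.5 and 55.0 with KCl, 8.28 and 20.8 with BDNF and 19.0 to 32.2 in controls (log2 −1.81 ± 0.42, edgeR adjusted p = 0.0102). Npas4 is a bHLH-PAS factor known to be induced by calcium influx, and the peak held both an AP-1 and a MEF2 motif. Its RNA was 1182 and 1132 with KCl, 80.2 and 48.4 with BDNF and 60.1 to 114 in controls (log2 −4.19 ± 0.34, limma adjusted p = 6.24e-07). At 1 h and 6 h the peak was not called (−0.57 and −0.24). The Egr4 promoter (chr6:85513304-85513886; Egr4 is a zinc finger factor) had 76.9 and 63.0 with BDNF, 38.6 and 29.2 with KCl and 38.3 to 63.5 in controls (log2 1.04 ± 0.32, edgeR adjusted p = 0.0925), and its RNA was not called (0.73 ± 0.60).

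Among 86 peaks nearest to 19 genes of neuronal activity effectors, 1 was higher with BDNF and 2 with KCl (3.49% against 1.88%). In the RNA 4 of 20 such genes were higher with BDNF, near the 23.1% of all genes, and 10 with KCl, against 21.8% of all genes. A peak in an intron 32.0 kb from the start of Inhba, the activin subunit beta A, had 45.2 and 25.4 with BDNF, 7.87 and 4.72 with KCl and 1.04 to 15.2 in controls (chr13:15979689-15979951, log2 2.45 ± 0.61, edgeR adjusted p = 0.0205). Inhba RNA was lower with BDNF, at −1.50 ± 0.23 (limma, adjusted p = 2.14e-05). The promoter of Nptx1, a neuronal pentraxin, was higher with KCl, with 48.6 and 30.2 against 16.3 and 12.2 and with 25.1 to 47.9 in controls (chr11:119547398-119547899, log2 −1.48 ± 0.46, edgeR adjusted p = 0.0889), while Nptx1 RNA was higher with BDNF (0.81 ± 0.13, limma adjusted p = 5.04e-05). A peak 18.005 kb from Btg2, an antiproliferative early gene, had 77.5 and 114 with KCl, 41.8 and 62.2 with BDNF and 69.6 to 105 in controls (chr1:134060889-134061341, log2 −0.86 ± 0.27, edgeR adjusted p = 0.0957). Btg2 RNA went the same way, at −0.50 ± 0.17 (limma, adjusted p = 0.0273). The 38 peaks of 12 neuropeptide genes, of which 2 had more RNA with BDNF and 4 with KCl (23.1% and 21.8% over all genes), held 1 call (2.63% against 1.88%), a peak 63.3 kb from Crh, the corticotropin-releasing hormone, with 22.3 and 30.9 with BDNF and 8.18 and 7.68 with KCl and 5.11 to 10.2 in controls (chr3:19758442-19758869, log2 1.75 ± 0.54, edgeR adjusted p = 0.0862). Crh RNA was lower with BDNF, at −2.28 ± 0.97 (limma, adjusted p = 0.0807).

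The 116 peaks of calcium and membrane excitability genes held 1 call in each direction, and this share of 1.72% was near the 1.88% of all peaks within 100 kb of a protein-coding start. In the RNA 3 of 24 such genes were higher with BDNF and 10 with KCl, against 23.1% and 21.8% of all genes. A peak in an intron of Cacna1b, the pore subunit of N-type calcium channels, had 31.9 and 15.3 with BDNF, 1.91 and 1.89 with KCl and 2.44 to 11.5 in controls (chr2:24566088-24566351, log2 3.53 ± 0.77, edgeR adjusted p = 0.00591), and Cacna1b RNA was lower with BDNF (−0.28 ± 0.12, limma adjusted p = 0.0745). A peak in an intron of Cacna1e, the pore subunit of R-type channels, had 32.4 and 37.9 with KCl, 11.3 and 10.9 with BDNF and 15.3 to 38.4 in controls (chr1:154730492-154730830, log2 −1.66 ± 0.49, edgeR adjusted p = 0.067).

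Nearest genes were then followed in the RNA at 10 h, where 23.1% of 16209 genes were higher with BDNF and 21.8% higher with KCl. Of 372 tested genes within 100 kb of a BDNF-higher peak, 93 were higher with BDNF (25%) and 111 with KCl (29.8%), with a median log2 difference of −0.05. Of 243 such genes of KCl-higher peaks, 43 were higher with BDNF (17.7%) and 74 with KCl (30.5%), with a median of −0.06. All 12004 tested genes with a peak within 100 kb gave 24.6% and 24.4%. Genes near BDNF-higher peaks were thus called higher with BDNF about as often as all genes with a peak. Where a BDNF-higher peak lay at the promoter, 38 of 123 tested genes (30.9%) were higher with BDNF and 24 (19.5%) with KCl. For KCl-higher promoter peaks, 17 of 70 (24.3%) were higher with BDNF and 12 (17.1%) with KCl. Over all 10969 tested genes with a promoter peak both shares were 24.8%. In bulk samples, fewer cells of a type and less RNA per cell cannot be told apart.

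**Figure D4:**
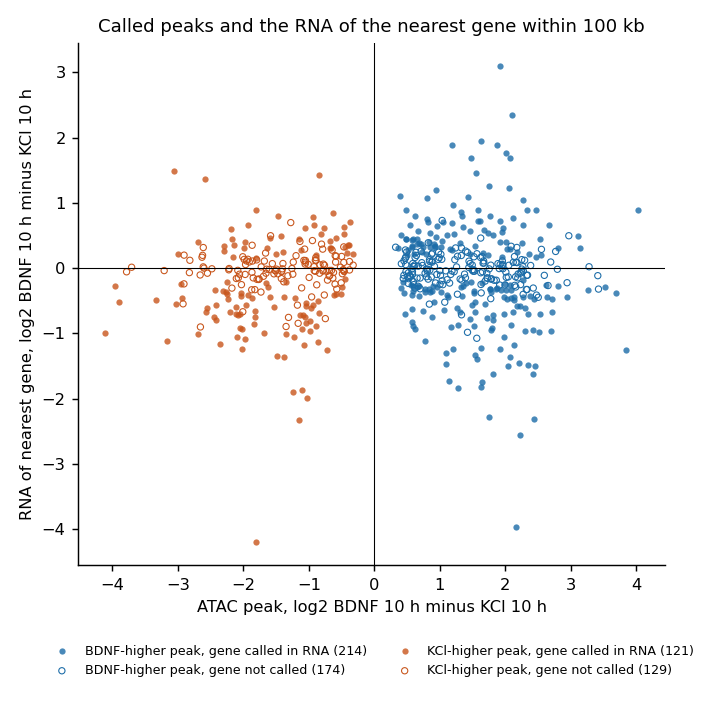
Each point is a called peak whose nearest protein-coding gene lies within 100 kb and was tested in the RNA, with the log2 difference BDNF 10 h minus KCl 10 h of the peak on the x axis and of the gene on the y axis. Filled points are genes called in the RNA, and of 388 BDNF-higher peaks 96 had a gene higher with BDNF and 118 a gene higher with KCl, against 43 and 78 of 250 KCl-higher peaks.

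Among peaks that went the same way as their gene with BDNF was the Farp1 peak given above, whose gene had 2188 and 1968 normalised RNA counts with BDNF and 1258 and 1004 with KCl (log2 0.88 ± 0.10, limma adjusted p = 3.49e-07). The Rtn4rl2 peak (chr2:84866109-84866586, 20.3 kb from this member of the Nogo receptor family) had 34.5 and 51.3 with BDNF, 5.31 and 6.84 with KCl and 15.96 to 43.8 in controls (log2 2.81 ± 0.50, edgeR adjusted p = 0.000386). Here it was KCl that stood apart from the controls. The Pfkfb3 peak (chr2:11429645-11430008, 71.9 kb from this glycolytic regulator), which holds the 3 AP-1 motifs shown above, had 172 and 118 with BDNF, 69.9 and 35.1 with KCl and 12.9 to 22.9 in controls (log2 1.46 ± 0.27, edgeR adjusted p = 0.00108). Both stimuli lay above all controls there, with BDNF above KCl. A peak in an intron near Kcnc4, a voltage-gated potassium channel, had 80.6 and 97.2 with BDNF, 34.7 and 17.8 with KCl and 9.21 to 18.8 in controls (chr3:107442150-107442699, log2 1.77 ± 0.35, edgeR adjusted p = 0.00219). Kcnc4 RNA was higher with BDNF by 0.80 ± 0.15 (limma, adjusted p = 0.000246). The Gna11 peak (chr10:81551569-81552001; Gna11 is a G protein alpha subunit) had 75.4 and 66.7 with BDNF, 17.7 and 24.3 with KCl and 55.8 to 85.1 in controls (log2 1.74 ± 0.34, edgeR adjusted p = 0.00171), so BDNF lay in the control range. The log2 RNA differences were 0.31 for Rtn4rl2, 0.22 for Pfkfb3 and 0.20 for Gna11. Cdh6 RNA, in contrast to its peak, was lower with BDNF (−1.25 ± 0.21, limma adjusted p = 6.92e-05).

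With KCl, peak and gene went together at Cacnb2, an auxiliary subunit of voltage-gated calcium channels. Its peak in an intron (chr2:14936355-14936991) had 90.1 and 92.8 with KCl, 24.6 and 26.9 with BDNF and 13.2 to 19.8 in controls (log2 −1.82 ± 0.38, edgeR adjusted p = 0.00363). The peak was called the same way at 6 h (−1.73) and 1 h (−1.27). Cacnb2 RNA was 200.5 and 229 with KCl, 127 and 129 with BDNF and 134 to 151 in controls (log2 −0.74 ± 0.13, limma adjusted p = 9.11e-05). The Hsd17b12 peak (chr2:94246845-94247468; the gene encodes an enzyme of fatty acid elongation) had 205 and 137 with KCl, 101 and 58.5 with BDNF and 59.9 to 105 in controls (log2 −1.13 ± 0.24, edgeR adjusted p = 0.00423). Hsd17b12 RNA differed by −0.72 ± 0.08, Hs3st5 RNA by −0.996 ± 0.18 and Bmt2 RNA by −0.28 ± 0.12 (limma, adjusted p of 4.81e-07, 0.000156 and 0.0737). The Inpp4a peak (chr1:37347361-37347746; Inpp4a is an inositol phosphatase) had 21.5 and 43.3 with KCl, 6.40 and 2.38 with BDNF and 12.4 to 38.6 in controls (log2 −2.94 ± 0.63, edgeR adjusted p = 0.00516).

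**Figure D5:**
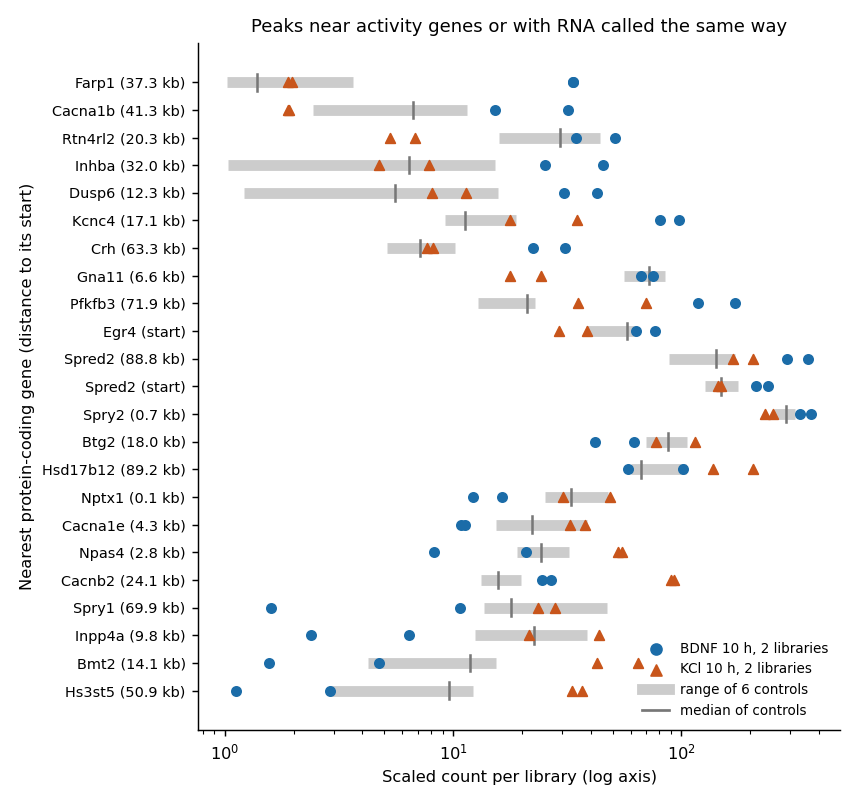
Scaled counts per library on a log x axis for the called peaks near genes of the activity lists and for those whose nearest gene was called the same way in the RNA, with the distance to the gene's start beside its name. Circles are the 2 BDNF libraries, triangles the 2 KCl libraries, the grey bar the range and the tick the median of 6 controls, and controls lie with KCl at Farp1 and with BDNF at Gna11.

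Called peaks did not pile up at single genes. No gene had more than 2 called peaks of a direction among peaks nearest to its start within 200 kb. Of the genes with 2, those with the largest median difference were Cpq, Rgs3, Tet2, Nav2 and Jcad for BDNF and Trhde, Dip2c, Ptger2, Ank2 and Nrxn3 for KCl. In that order, these genes had 8, 18, 13, 41 and 9 tested peaks for BDNF and 7, 11, 6, 31 and 28 for KCl. RNA of Trhde (−1.12 ± 0.21), Dip2c (−0.56 ± 0.08) and Ank2 (−1.01 ± 0.12) was higher with KCl as well (limma, adjusted p of 0.000244, 1.68e-05 and 2.75e-06). That of Nav2, Rgs3 and Jcad was lower with BDNF (−0.44 ± 0.10, −0.33 ± 0.12 and −0.45 ± 0.16, limma, adjusted p of 0.00223, 0.0301 and 0.0307). RNA of Cpq (−0.12 ± 0.32), Tet2 (−0.11 ± 0.10) and Nrxn3 (0.12 ± 0.12) was not called, and that of Ptger2 was not tested. Of all genes tested, 23.1% were higher with BDNF and 21.8% with KCl.

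Markers of cell types were read from the RNA of the 10 h groups, where 23.1% of all genes tested were higher with BDNF and 21.8% with KCl. The 6 pan-neuronal markers summed to 51742 to 55835 normalised counts in the 4 libraries, within the controls (51507 to 57342). Of these, 1 was called higher with BDNF and 2 with KCl. Markers of excitatory neurons summed to 8510 and 8061 with BDNF and 8638 and 8065 with KCl, within the controls (8014 to 8982). Of these 6, 0 were called higher with BDNF and 1 with KCl. Markers of inhibitory neurons summed to 14358 and 13453 with BDNF and 15459 and 14107 with KCl, above the controls (11126 to 13004), with 3 of 6 called higher with BDNF and 1 with KCl. Markers of astrocytes and radial glia summed to 16891 and 17631 with BDNF and 14259 and 14818 with KCl, against 17332 to 20058 in controls, with 2 of 6 called higher with BDNF. Markers of the oligodendrocyte lineage summed to 5963 and 5659 with BDNF and 7303 and 6639 with KCl, against 5838 to 6334 in controls, with 3 of 6 called higher with KCl and 1 with BDNF. Microglial markers summed to 123 to 143, and endothelial markers to 262 and 330.0 with BDNF and 398 and 529 with KCl, against 276 to 1233 in controls. The endothelial markers Tek, Flt1 and Cldn5 were under 10 in all 4 libraries. Markers of dividing progenitors summed to 6229 and 6510 with BDNF and 5704 and 6501 with KCl, against 6339 to 9789 in controls. Of these 6, 1 was called in each direction. The part of such cells in the called peaks was not tested.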

How the data were processed

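ATAC-seq (nuclei tagmented with Tn5) and RNA-seq were each deposited for 18 libraries. According to the methods and the processing notes, the authors trimmed reads with Trimmomatic, aligned ATAC reads with Bowtie2 to mm10, ran MACS2 on each sample, retained the peaks that at least 2 samples shared and counted reads in them with DiffBind. They aligned RNA with TopHat2 and divided counts by DESeq2 size factors. The ATAC table as deposited holds whole-number read counts per peak with a minimum of 1, so a 1 may stand for 0 or 1 read. The deposited RNA values are read counts divided by size factors (a normalised signal); 100% of values came back as whole reads within a tolerance of 0.01. Tables of the authors' log2 fold changes and p-values were not used.

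ATAC reads in peaks numbered 1.24 to 6.24 M per library (2.02 to 3.21 M in the 4 libraries compared). Replicates differed beyond sampling noise (chi-square per degree of freedom 2.02 to 2.58; Pearson r of log2 counts 0.854 to 0.926), so none was counted as a duplicate. Peaks with a mean count of at least 10 were fitted with edgeR 4.0.16 (R 4.3.3; robust quasi-likelihood, LOESS offsets, 7 levels with the 6 controls pooled), and SE is the fold change over the root of F. RNA was tested with limma 3.58.1 on log2(value + 1), which understates changes of low genes; edgeR on the recovered reads called 7257 genes against 7287. Both used a Benjamini-Hochberg adjusted p below 0.1. Intervals are 95% exact binomial or Poisson and cover counting error only. Promoters span 1000 bases upstream to 100 downstream of GENCODE M21 starts, and motifs were searched on both strands of the central 300 bases. Scripts were tested on simulated data.

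Named peaks were, in each direction, the 10 with the largest fold change among those with separated libraries (1 per nearest gene), the 5 such promoter peaks, every called peak within 100 kb of a listed gene, the 5 genes with most called peaks, and the 5 lowest p whose gene was called the same way in the RNA. The comparison, the gene lists and the markers were chosen with earlier results of these data known. Alternatives were TMM and RLE scaling, GC correction, DESeq2 1.42.0, limma, no filter, other model levels, a threshold of 0.01, a window of 150 bases, another promoter window and leaving out each library. The ATAC columns carry no replicate number. RNA columns carry letters, and deviations of same-letter libraries correlated at −0.31 to 0.42 over 36 pairs of groups, so the letters were not taken to pair samples.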

Additional observations from a re-analysis of the deposited data

Results flagged for a closer look

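Controls of the 47 named peaks were tested for a library far from the others with Dixon's ratio, which chance passes in about 1 group of 20. At the Spry1 peak the ratio was 0.822, with 1 control at 47.0 and the next at 19.6. At the Pfkfb3 peak it was 0.727, with 1 control at 12.9 and the next lowest at 20.2. At the Clrn2 peak it was 0.721, with 1 control at 12.2 and the next at 4.20. At the Actn4 peak it was 0.648, with 1 control at 32.1 and the next at 20.3.

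The difference between BDNF and KCl changed between 1 h and 10 h in 571 peaks by its own contrast (edgeR, adjusted p below the threshold). Among the named peaks these were the Ppip5k2 peak, with a change of −4.29 on the log2 scale from 0.58 at 1 h to −3.71 at 10 h (edgeR, adjusted p = 0.0454), the Actn4 peak, with −3.18 from 0.52 to −2.66 (edgeR, adjusted p = 0.0864), and the Inpp4a peak, with −2.99 from 0.05 to −2.94 (edgeR, adjusted p = 0.0543). All 3 were higher with KCl at 10 h and were not called between the stimuli at 1 h. They were named for their difference at 10 h, so a smaller difference at 1 h is in part given by the choice.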

How the results depend on the processing

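No named peak changed sign and no called peak was called the opposite way under any of the 13 ATAC alternatives. This was nearly fixed in advance, as BDNF and KCl libraries did not overlap in almost all called peaks and every alternative drew on the same 10 h libraries. The threshold of 0.01 kept the fitted differences of the main fit, so no sign could change there. The causes of the shifts below were not tested, other than that fewer libraries or a stricter threshold leave fewer calls. Of the 47 named peaks, 11 stayed called in all 13. Peaks higher with BDNF (655) numbered 1042 with TMM, 1071 with RLE, 406 with DESeq2, 95 at an adjusted p below 0.01 and 86 to 394 when 1 library was left out. Peaks higher with KCl (465) numbered 241 with DESeq2, 36 below 0.01 and 67 to 266 with 1 library left out. The change from 1 h (571) was 283 with DESeq2, 21 with limma, 27 below 0.01 and 80 to 444 with 1 library left out; that from 6 h (0) was 5 with 9 levels and 0 to 1 with 1 library left out. The BDNF share of calls (58.5%) was 67.4% with TMM, 68.1% with RLE, 62.75% with DESeq2, 46.6% with limma and 72.5% below 0.01.

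With TMM and RLE the AP-1 share of BDNF-higher peaks (38.6%) was 27.7% and 27.5%, the promoter share 44.9% and 45%, the share repeated at 6 h 28.6% and 28.7% and at 1 h 45.1% and 45%, and the promoter share of KCl-higher peaks 14.1% and 13.5%. With limma these BDNF shares were 25.7% (AP-1), 33.6% (promoter) and 47.95% (1 h), and 16.04% and 18.02% of KCl-higher peaks repeated at 6 h and 1 h. With DESeq2, 43.6% and 64.0% of BDNF-higher and 26.1% and 26.6% of KCl-higher peaks repeated at 6 h and 1 h, and 25.7% of KCl-higher peaks were promoters. With only the 4 libraries of 10 h, AP-1 was 44.2%, promoters 17.4%, and repeats 42.0% and 67.8% for BDNF and 26.3% at 6 h for KCl. Below 0.01, BDNF-higher peaks had 47.4% AP-1, 17.9% promoters and 67.4% and 82.1% repeats, and KCl-higher peaks 2.78% AP-1, 33.3% MEF2 and 33.3% and 38.9% repeats. A 150 base window gave 27.2% and 4.09% AP-1 and 7.96% MEF2. Leaving out 1 library gave, for BDNF-higher peaks, 19.7 to 28.9% promoters, 36.0 to 52.0% and 53.8 to 71.7% repeats, and for KCl-higher peaks 4.82 to 8.77% AP-1, 10.9 to 25.4% MEF2, 19.3 to 30.1% promoters and 12.8 to 29.9% and 17.7 to 29.9% repeats.

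RNA calls (7287) numbered 4161 below 0.01. With the letter of the RNA column as a replicate block there were 7495; the correlation of same-letter deviations for BDNF and KCl at 10 h was 0.06. No paired analysis was possible for ATAC because its columns carry no replicate number. With 2.02 to 3.21 M reads in peaks, differences in weak peaks were called only where large.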
